A study of Mus musculus with 2 samples.

Results

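The perineuronal net and lectican matrix of the left cerebral cortex was followed through 10 genes picked by symbol, namely the lecticans Acan, Bcan, Ncan and Vcan, the link proteins Hapln1, Hapln2 and Hapln4, the tenascins Tnr and Tnc, and the receptor phosphatase gene Ptprz1. They are 10 of 55536 annotated genes, and all 10 had a mean expected count of at least 10 and reached 1 TPM (a transcript level corrected for length, set to the same total in each library) in both animals. Total RNA with ribosomal RNA reduced was sequenced from male B6CASTF1/J mice, the F1 offspring of C57BL/6J and CAST/EiJ parents, at 25 days of age, with 300 ng of RNA per library. There was 1 group of 2 samples, replicate 2 and replicate 1, and the labels name no treatment or mutation. Their biobank numbers differ but both carry the same donor entry, so calling them separate animals is an assumption that rests on those numbers and on the word biological before replicate. No contrast between conditions exists, and every difference given here compares these 2 libraries without a test or p-value.

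The lecticans are chondroitin sulfate proteoglycans that bind hyaluronan at one end and tenascins at the other, and link proteins lock the hyaluronan bond. Around fast-spiking parvalbumin interneurons they condense into perineuronal nets, which form in rodent cortex during postnatal life as critical periods close. Aggrecan is the lectican most tied to nets, while the others are also widespread in the diffuse matrix, and brevican and versican V2 lie at the nodes of Ranvier.

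Versican and Ptprz1 transcripts code for proteins of different kinds depending on which exon is joined to which, and these joins define the forms whose shares are given further on. Versican has a pair of exons that carry the chondroitin sulfate attachment regions, the alpha exon (2880 bases, mm10 chr13:89702918-89705797, minus strand) and the beta exon (5217 bases, chr13:89688285-89693501, minus strand). V0 holds both, V1 only beta, V2 only alpha and V3 neither. Each line below spans 18 bases on either side of a join in the GENCODE M21 transcripts, 5′ to 3′ on the coding strand, with bases of the attachment exons in capitals.
V0 and V2, into the alpha exon: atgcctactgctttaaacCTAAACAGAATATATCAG
V0, alpha exon into beta exon: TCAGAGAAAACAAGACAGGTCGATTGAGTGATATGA
V2, alpha exon out: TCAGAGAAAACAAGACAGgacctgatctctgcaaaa
V1, into the beta exon: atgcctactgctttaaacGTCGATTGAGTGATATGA
V3, no attachment exon: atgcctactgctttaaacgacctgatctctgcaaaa

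Ptprz1 codes for a receptor phosphatase with a long extracellular chain, a shorter receptor, and a secreted proteoglycan, phosphacan, that lacks the membrane span. Exon 12 (mm10 chr6:22999200-23002746, plus strand) has 3547 bases in the long receptor and its first 1000 (chr6:22999200-23000199) in the short one. In the secreted form it is read through to a stop codon. In the next lines capitals mark the end of exon 12 in the receptors, and in the secreted form the 5 bases read past it, which close with the stop codon.
Long receptor, full exon 12 into exon 13: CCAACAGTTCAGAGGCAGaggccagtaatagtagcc
Short receptor, shortened exon 12 into exon 13: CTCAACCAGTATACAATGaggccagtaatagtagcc
Secreted form, past exon 12: ccaacagttcagaggcagGTTAG

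The libraries held 33263801 expected counts in replicate 2 and 30503944 in replicate 1. The animals differed outside the matrix: all 12 mature oligodendrocyte markers and all 8 choroid plexus markers were higher in replicate 2, the first list summing to 1300 TPM in replicate 2 and 977 TPM in replicate 1 and the second to 204 TPM in replicate 2 and 25.3 TPM in replicate 1. Most of the second sum was Ttr, with 192 TPM in replicate 2 and 19.5 TPM in replicate 1. Of the 8 choroid plexus markers, 4 reached 1 TPM in both animals. All 12 immediate early genes were lower in replicate 2. Markers of the cortex itself were present, with 8 of 8 excitatory neuron and 10 of 10 fast-spiking parvalbumin neuron markers detected in both animals. Over the 18136 genes that averaged 10 counts or more the median log2 of replicate 2 over replicate 1 was -0.03 by TPM.

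Bcan and Ncan stood far above the other lecticans, and Acan was the lowest of all 10 genes. Bcan, which makes brevican, the short brain-specific lectican (ENSMUSG00000004892.13, mm10 chr3:87987531-88000230, minus strand), had 112 TPM in replicate 2 and 114 TPM in replicate 1 (6802 and 6291 counts). Its mean of 113 ± 1.38 TPM (SD, n = 2) placed it at rank 774 by TPM among protein-coding genes. Ncan, which makes neurocan, a lectican most abundant in the young brain (ENSMUSG00000002341.8, chr8:70093085-70120873, minus strand), had 96.0 TPM in replicate 2 and 104 TPM in replicate 1 (15345 and 14901 counts). The animals' values for Bcan and Ncan did not overlap, and Ncan had more counts at a lower TPM, since TPM divides by length. Vcan, which makes versican (ENSMUSG00000021614.16, chr13:89655312-89742509, minus strand), had 5.96 TPM in replicate 2 and 6.93 TPM in replicate 1 (872 and 828 counts). Acan, which makes aggrecan (ENSMUSG00000030607.7, chr7:79053483-79115099, plus strand), had 1.34 TPM in replicate 2 and 1.49 TPM in replicate 1 (203 and 176 counts). On the TPM scale Bcan exceeded Acan 83.9-fold in replicate 2 and 76.8-fold in replicate 1.

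**Figure D1:**
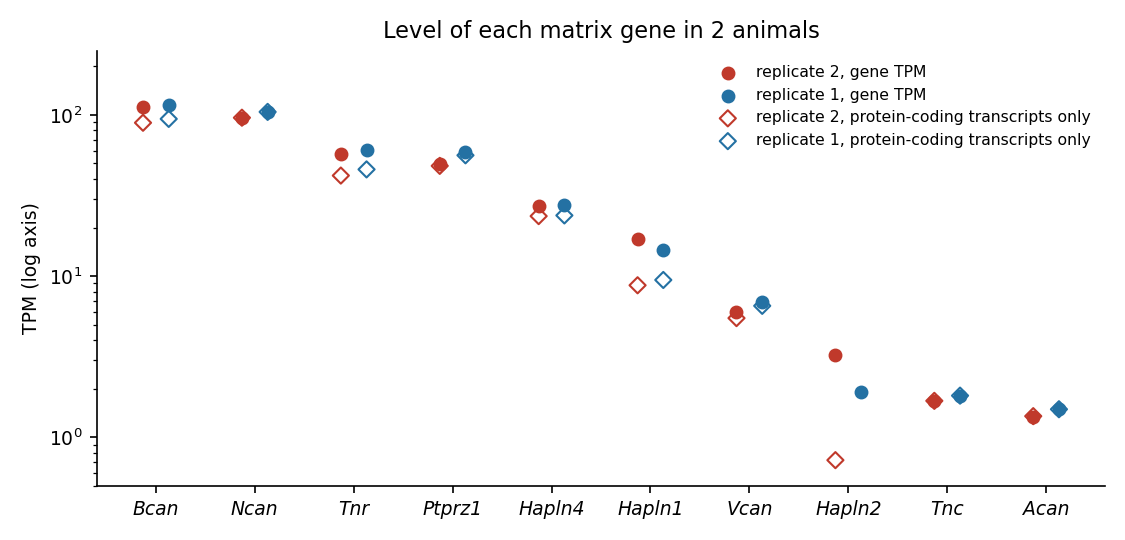
TPM (log axis) of the 10 matrix genes in both animals, with filled points for the gene and open diamonds for its protein-coding transcripts only; Hapln2 has no diamond for replicate 1, where that value was 0. Bcan and Ncan lie highest and Tnc and Acan lowest among the filled points.

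Of the summed lectican TPM, 216 in replicate 2 and 227 in replicate 1, Bcan held 51.2% ± 1.24 (SD, n = 2), Ncan 45.2% ± 1.01, Vcan 2.91% ± 0.20 and Acan 0.638% ± 0.025. These shares do not depend on library scaling, but they depend on the length correction: as shares of expected counts, Ncan held 66.6% and Bcan 28.8%. Counting only transcripts annotated as protein-coding, which was chosen after seeing the data, gave Ncan 50.2% and Bcan 46.1% of TPM. Which of these genes leads is therefore not fixed by the data, whereas Vcan and Acan stayed the third and the fourth of the lecticans in each of these settings.

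Of the 3 link protein genes followed, Hapln4 was the most abundant and Hapln2 the least. Hapln4, whose brain link protein is found at nets and at synapses of the brainstem and cerebellum (ENSMUSG00000007594.10, chr8:70083457-70090862, plus strand), had 27.4 TPM in replicate 2 and 27.5 TPM in replicate 1 (1916 and 1728 counts). Hapln1, whose product locks aggrecan to hyaluronan in cartilage and in nets (ENSMUSG00000021613.9, chr13:89539796-89611652, plus strand), had 17.0 TPM in replicate 2 and 14.4 TPM in replicate 1 (1175 and 1104 counts). Hapln2, whose product is part of the versican and brevican matrix at the nodes of myelinated axons (ENSMUSG00000004894.10, chr3:88021750-88027583, minus strand), had 3.23 TPM in replicate 2 and 1.92 TPM in replicate 1 (125 and 65 counts). The ranges of the animals did not overlap between any of these genes. Of the summed link protein TPM, Hapln4 held 60.1% ± 3.73 (SD, n = 2), Hapln1 34.3% ± 2.02 and Hapln2 5.59% ± 1.70.

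Among the tenascins, Tnr exceeded Tnc 34.0-fold in replicate 2 and 33.3-fold in replicate 1 on the TPM scale. Tnr makes tenascin-R, the brain tenascin that cross-links lecticans in nets (ENSMUSG00000015829.13, chr1:159523769-159931729, plus strand), and had 57.1 TPM in replicate 2 and 60.2 TPM in replicate 1 (9513 and 9565 counts). Tnc makes tenascin-C, an early glial and stem cell niche matrix protein (ENSMUSG00000028364.15, chr4:63959785-64047015, minus strand), and had 1.68 TPM in replicate 2 and 1.81 TPM in replicate 1 (256 and 204 counts). Ptprz1, found in astrocytes and oligodendrocyte precursors (ENSMUSG00000068748.7, chr6:22875502-23052916, plus strand), had 49.7 TPM in replicate 2 and 58.6 TPM in replicate 1 (7439 and 7701 counts). Its range overlapped that of Tnr.

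From the highest mean TPM to the lowest the order was Bcan, Ncan, Tnr, Ptprz1, Hapln4, Hapln1, Vcan, Hapln2, Tnc and Acan. In 8 of the 9 neighbouring pairs the animals' ranges did not overlap, the exception being Tnr and Ptprz1. The SD over the 2 samples ran from 0.09 TPM for Tnc to 6.31 TPM for Ptprz1. The largest ratio between neighbours was 2.50-fold, at Vcan over Hapln2, and the smallest was 1.08-fold, at Tnr over Ptprz1. Posterior mean TPM and the second deposited set of transcript estimates, called the second file below, gave the same order. With protein-coding transcripts only, Ncan led Bcan, Ptprz1 led Tnr, and Hapln2 came last, after Acan.

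Hapln2 alone of the 10 genes stood more than 0.32 apart between the animals on the scale of log2(TPM + 0.5), the step used here to call a difference. It was 0.62 higher in replicate 2, while TMM-scaled counts, in which a trimmed mean over genes aligns the libraries, gave 0.81 with a 95% interval of 0.37 to 1.27, which covers counting error only. So 1 of the 10 was past that step on the higher side, against 5.44% of the 18136 genes, and 0 were past it on the lower side, against 9%. Of the 10, 0 were past 2-fold in either direction by TPM, against 0.7% of these genes. Beside Hapln2, 9 of 12 mature oligodendrocyte markers were past the step of 0.32 on the higher side, and the list's median was 0.41. Mbp, which makes myelin basic protein, had 463 TPM in replicate 2 and 348 TPM in replicate 1. In bulk tissue, fewer cells of a type and less RNA per cell cannot be told apart. The part that these cells had in the Hapln2 difference was not tested.

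**Figure D2:**
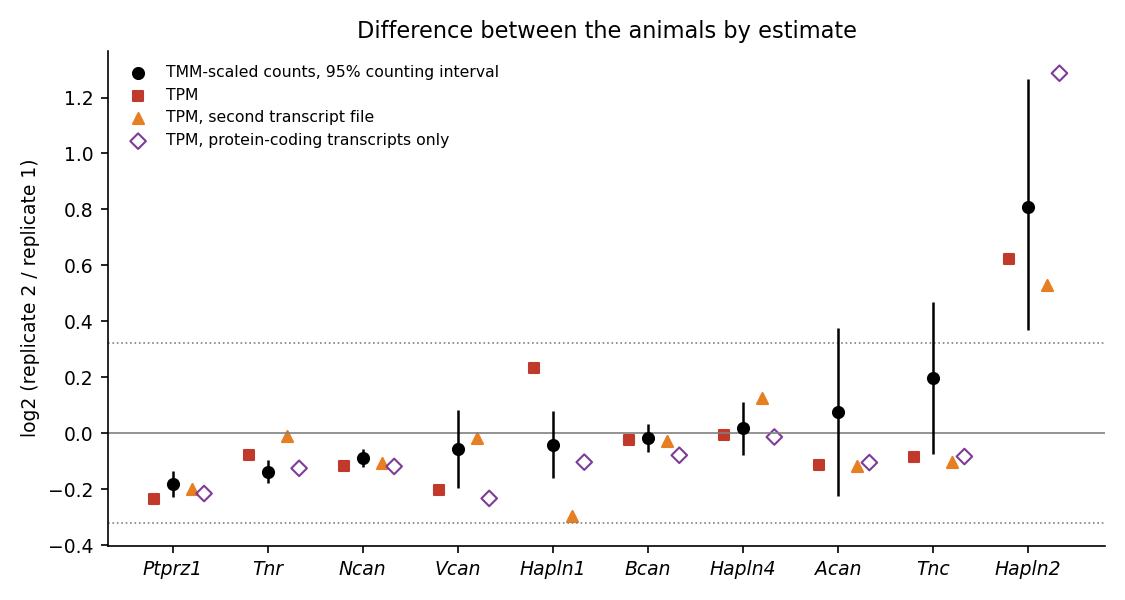
Log2 of replicate 2 over replicate 1 for the 10 genes, by TPM + 0.5, by TMM-scaled counts with the 95% counting interval, by the second transcript file and by protein-coding transcripts only. Hapln2 is the gene that lies past the dotted line at 0.32 by all of these, its diamond setting 0.72 TPM in replicate 2 against 0 in replicate 1, and Hapln1, Hapln4, Tnc and Acan lie on different sides of 0 by TPM and by TMM-scaled counts.

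The other 9 genes lay between -0.24 and 0.23 on that TPM scale, and the median over all 10 was -0.08, beside -0.03 over all genes. The counting intervals of 3 genes lay below 0, against 11.6% of all genes, and that of Hapln2 alone lay above 0, against 9.88%. Ptprz1 gave -0.18 (interval -0.23 to -0.13), Tnr -0.14 (-0.18 to -0.10) and Ncan -0.09 (-0.12 to -0.06) on TMM-scaled counts. Scaled to the ERCC spike-ins, Ptprz1 gave -0.03, Tnr 0.02 and Ncan 0.07, while the median of all genes moved to 0.15 on that scale, so all 3 stayed below it. Beside Ptprz1, the 12 astrocyte markers had a median of -0.13 by TPM and -0.07 by TMM-scaled counts. On either scale 4 of them were higher in replicate 2. They summed to 1654 TPM in replicate 2 and 1818 TPM in replicate 1, of which Slc1a2 held 796 and 899 TPM. The 10 oligodendrocyte precursor markers had a median of 0.04 by TPM and 0.07 by TMM-scaled counts. Whether either cell type had a part in the Ptprz1 difference was not tested.

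Hapln1 changed side with the estimate. By TPM it was 0.23 higher in replicate 2, by TMM-scaled counts it gave -0.04 (interval -0.16 to 0.08), and in the second file, with 17.1 TPM in replicate 2 and 21.1 TPM in replicate 1, it gave -0.30. The estimated effective length that divides its counts was 3072 bases in replicate 2 and 3810 in replicate 1. Acan, Tnc and Hapln4 also turned sign between TPM and TMM-scaled counts, at -0.11 and 0.07 for Acan, -0.08 and 0.20 for Tnc, and -0.01 and 0.02 for Hapln4. The counting intervals of Hapln1, Hapln4, Tnc and Acan all included 0.

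Versican RNA was mostly V2 and V0, and V1 had an expected count of 0. V2 (Vcan-202, coding length 4845 bases) held 37.3% of Vcan TPM in replicate 2 and 40.7% in replicate 1. V0 (Vcan-203, coding length 10062 bases) held 30.4% in replicate 2 and 25.6% in replicate 1, and the animals' ranges for V2 and V0 did not overlap. By counts the order was the other way, since V0 is the longer: V0 took 503 ± 21.3 counts in replicate 2 and 440 ± 19.4 in replicate 1, and V2 took 280 ± 27.6 in replicate 2 and 318 ± 23.2 in replicate 1, where ± is the deposited posterior SD of the assignment. V1 (Vcan-206), whose defining join from the exon before alpha straight into beta is printed above, had 0 counts in both animals with a posterior SD of 7.34 in replicate 2 and 7.16 in replicate 1, and 0 counts again in the second file. A count of 0 allows up to 3 counts, and the posterior SD is wider than that. V3 (Vcan-201), with no attachment exon, held 21.3% of Vcan TPM in replicate 2 and 11.2% in replicate 1, and in the second file 9.31% and 0%. It had 63.6 ± 18.0 counts in replicate 2 and 34.8 ± 15.7 in replicate 1, and in the second file 26.7 counts in replicate 2 and 0 in replicate 1. The retained-intron Vcan-207 held 7.86% of Vcan TPM in replicate 2 and 5.74% in replicate 1. The V3 level is thus not settled between the files, whereas both files put V2 first by TPM, V0 next and V1 at 0. V2 is known as the form of oligodendrocyte-lineage cells in adult brain, and V0 and V1 as forms of the developing brain.

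**Figure D3:**
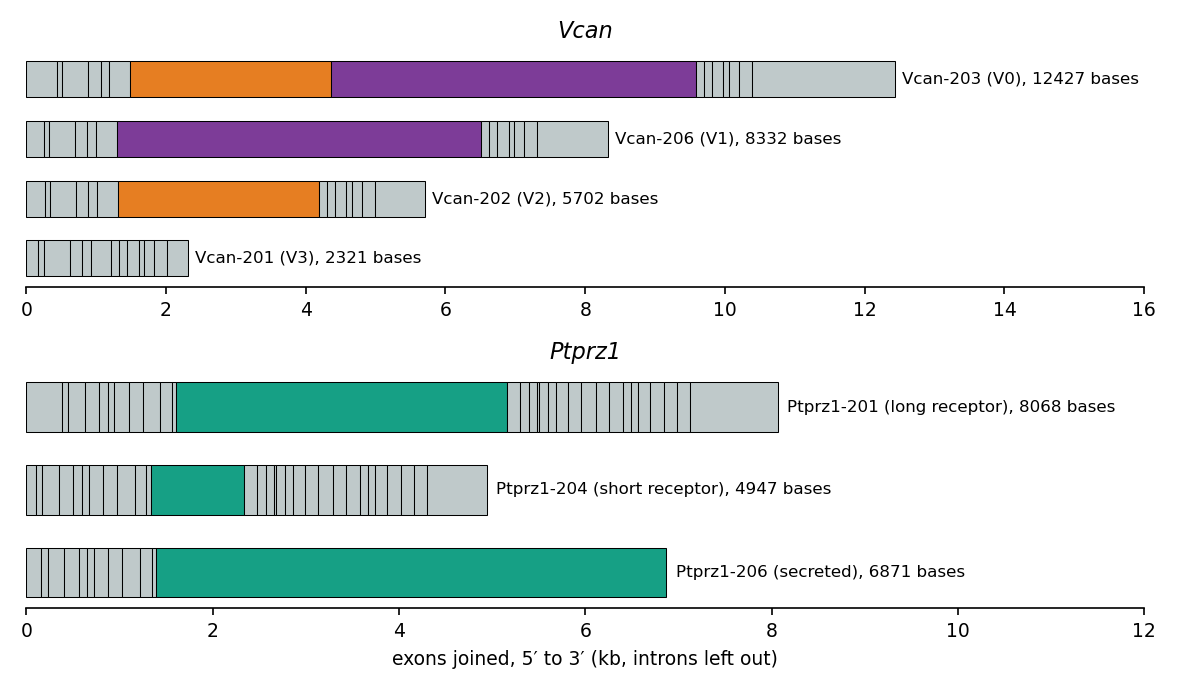
Exons of the Vcan and Ptprz1 forms joined 5′ to 3′ and drawn to scale (kb, introns left out), with the Vcan alpha exon in orange, the beta exon in purple and Ptprz1 exon 12 in green. V0 holds both attachment exons and V3 neither, and exon 12 is shorter in the short receptor.

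Secreted phosphacan was the leading Ptprz1 form by TPM. Ptprz1-206 (coding length 4836 bases) held 46.6% of Ptprz1 TPM in replicate 2 and 48.7% in replicate 1, on 3536 ± 69.7 counts in replicate 2 and 3893 ± 73.0 in replicate 1 (± posterior SD). The long receptor, Ptprz1-201 (6936 bases), held 31.9% in replicate 2 and 28.4% in replicate 1, on 2844 ± 115 and 2667 ± 116 counts. The short receptor, Ptprz1-204 (4389 bases), held 18.5% in replicate 2 and 18.6% in replicate 1. In the second file the secreted form stood at 44.0% in replicate 2 and 46.7% in replicate 1, the long receptor at 42.6% and 39.5% and the short receptor at 10.3% and 10.1%. By TPM the order was secreted, long and short in both files and both animals. By counts the second file put the long receptor first, with 3990 in replicate 2 and 3830 in replicate 1. The secreted form had 3482 and 3825 counts there. The shares of the receptors differed more between the files than between the animals.

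Bcan had 1 transcript with the full coding sequence. Bcan-201 (coding length 2649 bases) held 79.4% of Bcan TPM in replicate 2 and 82.5% in replicate 1, on 6120 and 5780 counts. The rest went to shorter transcripts annotated as retained introns, of which Bcan-203 held 6.89% in replicate 2 and 4.21% in replicate 1, Bcan-202 6.91% and 5.38%, and Bcan-206 5.05% and 6.88%. Estimates of the second kind gave Bcan-203 12.4% and 11.8% and Bcan-202 12.5% and 11.8%, and left Bcan-206 at or near 0%. Brevican is known to have a membrane-anchored form besides the secreted one, and no transcript measured here is annotated as coding for it. The last exon of Bcan-203, of 1129 bases, holds the 588 bases of exon 8 of Bcan-201 and reads on into the next intron. Bcan-203 had 407 counts in replicate 2 and 226 in replicate 1. Whether these come from the anchored form was not tested.

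**Figure D4:**
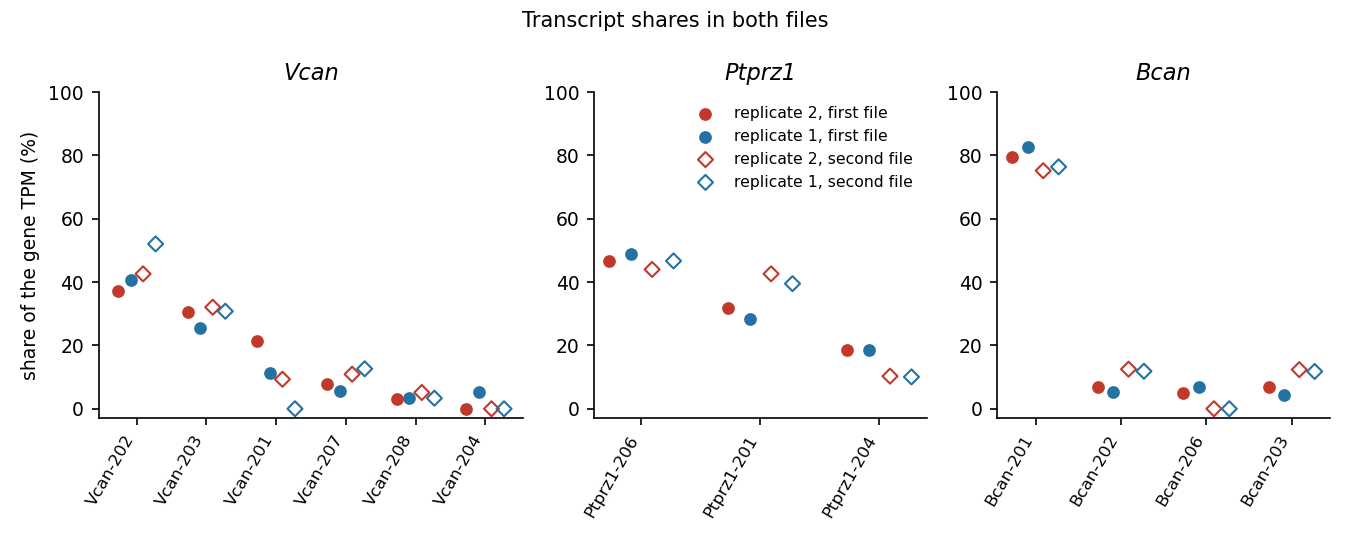
Share of gene TPM (%) of the named Vcan, Ptprz1 and Bcan transcripts, with filled circles for the first and open diamonds for the second transcript file, in replicate 2 and replicate 1. Vcan-202, Ptprz1-206 and Bcan-201 lead in both files and both animals.

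Short transcripts with a retained intron weighed on the TPM of several link proteins. Hapln1-202, of 464 bases, held 48.4% of Hapln1 TPM in replicate 2 and 34.4% in replicate 1 on 67.6 and 36.4 counts, which were 5.76% and 3.30% of the gene's counts. The coding Hapln1-201 had 1107 counts in replicate 2 and 1068 in replicate 1. Hapln4-203, of 503 bases, held 13.9% of Hapln4 TPM in replicate 2 and 13.6% in replicate 1 on 34.7 and 30.5 counts, and 43.5% and 37.6% in the second file. For Hapln2 the coding form had few counts: Hapln2-201 had 26.3 counts in replicate 2 and 0 in replicate 1, while the retained-intron Hapln2-203 had 90.0 and 59.6 counts. The decay-prone Hapln2-202 had 7.53 counts in replicate 2 and 1.39 in replicate 1, and the retained-intron Hapln2-204 had 1.14 and 4.05. In the second file Hapln2-203 held 84.3% of the TPM in replicate 2 and 73.0% in replicate 1, and the coding form at most 2.53%. Of the 125 Hapln2 counts in replicate 2, 98.7 went to forms not annotated as protein-coding, and of the 65 in replicate 1 all 65 did. In the second file 122 counts in replicate 2 and 63.6 in replicate 1 went to such forms. The Hapln2 level of either animal thus rests mainly on forms with no full coding sequence.

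The remaining genes had simpler or thinner transcript data. Ncan has a single annotated transcript, Ncan-201 (coding length 3804 bases). Tnr-202 held 54.4% of Tnr TPM in replicate 2 and 60.1% in replicate 1 and Tnr-201, with the same coding length of 4074 bases, 14.7% and 9.97%. The retained-intron Tnr-205 of 660 bases held 26.4% in replicate 2 and 23.9% in replicate 1, on 190 and 162 of the gene's counts. Among the long Tnc forms, Tnc-204 (coding length 6057 bases) had 185 counts in replicate 2 and 136 in replicate 1, and Tnc-203 (6330 bases) had 65.0 and 33.8. The full-length Acan-201 had 194 counts in replicate 2 and 154 in replicate 1, or 88.5% and 70.5% of Acan TPM. The shorter Acan-202 had 8.73 ± 4.1 counts in replicate 2 and 22.1 ± 7.8 in replicate 1 (± posterior SD). The shorter Tnc-202 had 6.26 ± 8.45 and 34.2 ± 9.7. By these estimates both genes had more of their few reads on short forms in replicate 1, with a posterior SD that is large beside the counts. Tnr-204 held 4.47% of Tnr TPM in replicate 2 and 6.05% in replicate 1. Other transcripts above 5% in a single animal or file were Tnr-203 with 7.75% in replicate 2 of the second file, Vcan-204 with 5.43% in replicate 1 of the first file on 1.48 counts, and Vcan-208 with 5.13% in replicate 2 of the second file on 3.87 counts.

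Each lectican gene has a link protein gene as its neighbour, and the ratio of their levels differed from pair to pair. Bcan lies 21519 bases from Hapln2 on the same strand, Ncan 2222 bases from Hapln4, Vcan 43659 bases from Hapln1 and Acan 2 bases from Hapln3, with 0 annotated genes between any of these pairs. The lectican over its neighbour, as a TPM ratio, was 34.8 in replicate 2 and 59.6 in replicate 1 for Bcan over Hapln2. It was 3.51 and 3.79 for Ncan over Hapln4, 0.351 and 0.481 for Vcan over Hapln1, and 1.05 and 1.67 for Acan over Hapln3. Hapln3, a link protein gene of other tissues, had 1.28 TPM in replicate 2 and 0.89 TPM in replicate 1 (51 and 40 counts). These ratios depend on the estimate. In the second file Vcan had 8.42 TPM in replicate 2 and 8.54 TPM in replicate 1, and Hapln1 17.1 and 21.1 TPM. Acan had 1.88 and 2.08 TPM there, and Hapln3 1.85 and 1.82 TPM. Ncan had 137 and 148 TPM in that file, and Hapln4 61.0 and 55.9 TPM. Bcan had 170 and 174 TPM, and Hapln2 4.09 and 2.68 TPM, nearly all of it on forms not annotated as protein-coding. Genes that overlap Tnr, Vcan or Hapln1 held at most 59 counts in either animal, and since the strand setting of the counting is not given in the sources used here, reads of antisense partners such as Gm4117 at Vcan (11 and 8 counts) cannot be told apart from the gene's own.

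Genes that make, bind and break down hyaluronan were detected in part. Of 14 genes of hyaluronan synthesis, binding and breakdown, 8 reached 1 TPM in both animals. With a cut of 0.5 TPM the count was 11, and in the second file 12 reached 1 TPM. Hexa, a lysosomal enzyme gene, had 21.6 TPM in both animals. Cemip, a hyaluronan-degrading protein gene, had 9.39 TPM in replicate 2 and 9.30 TPM in replicate 1, and its relative Cemip2 had 6.01 and 6.69 TPM. The synthases, singled out after their values were seen, were lower still, the highest being Has3 with 0.95 TPM in replicate 2 and 0.94 TPM in replicate 1. Has1 had 0.23 and Has2 0.12 TPM in replicate 2, against 0.22 and 0.11 TPM in replicate 1. Past the step of 0.32 were Hapln3, 0.36 higher in replicate 2 by TPM and 0.02 in the second file, and Hyal2, a hyaluronidase gene, with 4.06 TPM in replicate 2 and 6.30 TPM in replicate 1. Hyal2 gave a log2 of -0.58 by TPM and 0.01 in the second file. By TMM-scaled counts Hapln3 at 0.22 (interval -0.41 to 0.85) and Hyal2 at -0.22 (-0.55 to 0.11) fell short of the step. On that scale 1 gene of the list was past it on the higher side, against 8.08% of all genes. On the lower side it was 1, against 10.4%. Named after their values were seen, these were Cd44 at 0.40 (0.07 to 0.74) and Hyal3 at -0.57 (-1.62 to 0.40). By TPM they gave 0.24 and -0.21. Over the 18136 genes 5.44% were past the step on the higher side by TPM and 9% on the lower. The list median was 0.00, beside -0.03 over all genes.

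Chondroitin sulfate synthesis genes were broadly detected. Of 22 such genes 18 were detected in both animals. By TPM 0 of the 21 with enough counts were past the step in either direction, beside 5.44% of all genes higher and 9% lower. The list median was 0.02. The highest were B3gat3, which completes the linker sugar chain, with 71.1 TPM in replicate 2 and 67.2 TPM in replicate 1, and Chpf, a chondroitin polymerizing factor, at 35.9 and 36.4 TPM. Fam20b, the xylose kinase of the linker, had 31.96 TPM in replicate 2 and 31.94 TPM in replicate 1, and Chpf2 had 30.1 and 28.6 TPM.

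**Figure D5:**
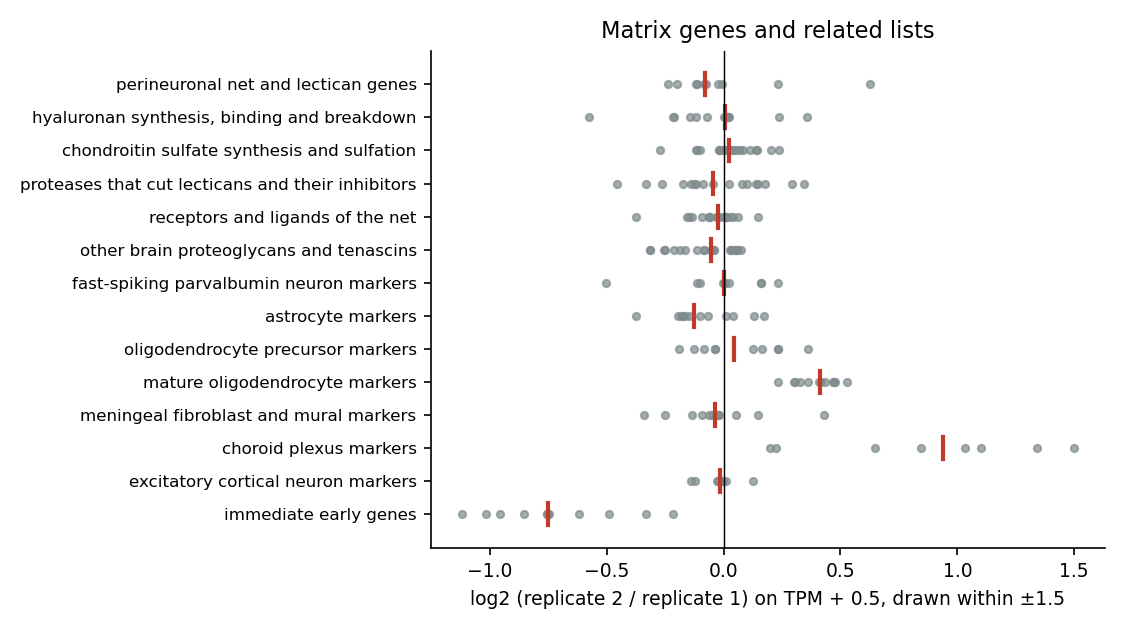
Log2 of replicate 2 over replicate 1 (TPM + 0.5) of each gene averaging 10 counts or more, by list, with the list median as a bar, drawn within 1.5 on either side of 0. The matrix lists are centred near 0, mature oligodendrocyte and choroid plexus markers lie to the right and immediate early genes to the left.

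Of 19 genes for proteases that cut lecticans and their inhibitors, 15 were detected in both animals. The inhibitor Timp2 was the highest with 119 TPM in replicate 2 and 108 TPM in replicate 1, followed by Timp3 at 24.2 and 29.1 TPM, cathepsin S gene Ctss at 24.4 and 24.0 TPM, and the membrane metalloproteinase gene Mmp16 at 22.0 and 20.8 TPM. By TPM 5.44% of the 18136 genes were past the step on the higher side and 9% on the lower. Mmp14 was past the step on the higher side, with 6.46 TPM in replicate 2 and 4.98 TPM in replicate 1, but gave 0.18 in the second file. Past it on the lower side were Adamts1, an aggrecanase gene, with 3.09 TPM in replicate 2 and 4.42 TPM in replicate 1, and Mmp9, a gelatinase gene with 36 counts in replicate 2 and 38 in replicate 1, whose log2 difference was -0.33. Mmp9 gave -0.21 by TMM-scaled counts (interval -0.91 to 0.49) and -0.32 in the second file, short of the step in both. By TMM-scaled counts 3 genes of this list were past it on the higher side, against 8.08% of the 18136 genes, and 2 on the lower side, against 10.4%. The 3 were Mmp14 at 0.41, Mmp15 at 0.37 and Mmp2 at 0.51, and the 2 were Adamts1 at -0.43 and Adamts9 at -0.45, of which Mmp15, Mmp2 and Adamts9 are named after their values were seen. The list median was -0.04 by TPM.

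All 20 genes for receptors and ligands of the net were detected in both animals. Ptprs, a chondroitin sulfate receptor phosphatase gene, had 272 TPM in replicate 2 and 270 TPM in replicate 1, and its relative Ptprd had 147 and 163 TPM. The adhesion gene Nrcam had 245 TPM in replicate 2 and 244 TPM in replicate 1, and Ptn, which makes pleiotrophin, a ligand of Ptprz1, had 206 and 215 TPM. Cntn4, a contactin gene, was the one past the step, with 21.03 TPM in replicate 2 and 27.39 TPM in replicate 1, and a log2 of -0.37 by TPM and -0.16 by TMM-scaled counts. By TPM 9% of all genes were past the step on the lower side and 5.44% on the higher. The list median was -0.03.

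Among 21 other brain proteoglycan, tenascin and matrix genes, 18 were detected in both animals. By TPM 0 were past the step, beside 5.44% of all genes on the higher side and 9% on the lower. By TMM-scaled counts 3 were past the step on the lower side, again beside 10.4% of all genes. Named after their values were seen, these were the fibronectin gene Fn1 at -0.43 (interval -0.50 to -0.36), Lum at -0.34 (-0.97 to 0.27) and Tnn at -0.69 (-2.03 to 0.53). Lum had 43 counts in replicate 2 and 50 in replicate 1, and Tnn had 10 and 15, and the intervals of both included 0. Several exceeded every lectican: Sparcl1, which makes hevin, an astrocyte matrix protein, had 629 TPM in replicate 2 and 651 TPM in replicate 1, and Spock2, a testican gene, had 263 and 250 TPM. Cspg5, which makes neuroglycan C, had 173 TPM in replicate 2 and 170 TPM in replicate 1, and Spock1 had 118 and 128 TPM. Of the cells that nets surround, Pvalb, the parvalbumin gene, had 41.5 TPM in replicate 2 and 41.4 TPM in replicate 1, and the 10 fast-spiking markers had a median log2 difference of 0.00, with Cox6a2 alone past the step, having 3.59 TPM in replicate 2 and 5.30 TPM in replicate 1.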

How the data were processed

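Per the file headers and the deposited file lists, the authors supplied, on mm10 with GENCODE M21 annotation, a gene table and a first transcript table with expected counts, TPM, posterior mean values and posterior SD, and percent of gene TPM per transcript, under column names that RSEM writes. The second transcript table the authors deposited holds estimated counts and TPM under names that kallisto writes. The sources used here do not give the aligner, the versions or the strand setting.

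From these, levels (mean and SD over 2 animals), shares of gene TPM, and log2 of replicate 2 over replicate 1 on TPM + 0.5 were computed, which understates differences of low genes. Intervals are exact binomial 95% intervals of TMM-scaled counts and, like the allowance of 3 counts for a count of 0, cover counting error only. Expected counts were rounded for TMM (edgeR 4.0.16) and DESeq2 1.42.0 size factors. R 4.3.3 and Python 3.11.15 ran the steps with scipy 1.17.1, pandas 2.3.3, numpy 2.4.6 and, for figures, matplotlib 3.10.9. The log2 differences of counts and their intervals were checked on simulated gene counts that held counting error only. Levels, shares and join sequences were not checked in this way. In the gene table, 26248 numbered rows that name no gene were left out, with 10 counts in replicate 2 and 7 in replicate 1 (3.0e-05% and 2.3e-05% of all counts). The matrix genes and the other lists were chosen with earlier results of these data known. Of each list the text names the 4 genes with the highest mean TPM and up to 4 past a log2 difference of 0.32 among those averaging 10 counts or more. One gene that this rule names is not reported here. Transcripts are named at 5% or more of gene TPM in either animal and either file. Cell type and early gene lists are given by counts and examples. Join sequences were read from the GENCODE M21 transcripts. Alternatives changed the estimate, scaling, pseudocount, count filter, detection level and transcripts counted, or left out a replicate.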

Additional observations from a re-analysis of the deposited data

How the results depend on the processing

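Among the 10 matrix genes Hapln2, past a log2 difference of 0.32, kept its direction in every setting. The order of levels held with posterior means and in the second file, and changed with protein-coding transcripts only, a setting chosen after seeing the data. With spike-in scaling 2 genes were past 0.32 on the higher side, the other being Tnc at 0.35. Of the 10, 4 were higher in replicate 2 by TMM-scaled counts and 4 by DESeq2 size factors. By spike-in total 9 were higher, with a median of 0.13 beside 0.15 over all genes. With protein-coding transcripts only, 1 was higher. As shares of expected counts, lecticans gave Ncan 66.6%, Bcan 28.8%, Vcan 3.74% and Acan 0.834%, and link proteins Hapln1 37.3% and Hapln2 3.07%. In the second file the shares were Bcan 52.9%, Ncan 43.9%, Vcan 2.61%, Acan 0.610%, Hapln4 72.2% and Hapln1 23.6%. With protein-coding transcripts only they were Ncan 50.2%, Bcan 46.1%, Acan 0.711%, Hapln4 71.4%, Hapln1 27.5% and Hapln2 1.09%. Transcript means in the second file were Bcan-201 75.8%, Vcan-202 47.3%, Ptprz1-201 41.0%, Ptprz1-206 45.3% and Ptprz1-204 10.2%. Posterior mean shares were Vcan-203 23.7%, Vcan-202 33.5% and Ptprz1-204 18.5%. Among protein-coding transcripts alone they were Bcan-201 100%, Vcan-202 41.8%, Ptprz1-206 49.5% and Ptprz1-204 19.3%. The cause of these shifts was not tested. No paired analysis was possible because there is only 1 group. With 2 samples, leaving out 1 leaves the other's values, which the text prints. Of the other values recomputed with both samples, for single genes, transcripts and lists, 201 stayed within the spread or count allowance and 94 did not. The depth limits Hapln2, Acan, Tnc and Vcan V3 most, which rest on the fewest counts. Replicate spread comes from 2 samples and may be technical.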
